A study of Mus musculus with 8 samples.

Results

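The Cyp4 genes described here encode cytochrome P450 enzymes that hydroxylate fatty acids at or next to the omega carbon, the end far from the carboxyl group. They were chosen by gene symbol, as the rows of the deposited table named Cyp4a10, Cyp4a14, Cyp4a12a, Cyp4a12b, Cyp4a31, Cyp4a32, Cyp4b1, Cyp4f13, Cyp4f14 and Cyp4v3, and all 10 were found among the 23386 genes of the table. The samples are polyadenylated RNA of the whole left kidney at an age of 49 weeks, with 4 Ctrp1-/- (KO) libraries and 4 wild-type (WT) libraries, the WT mice being littermates. Both groups have the strain label C57BL/6J, no drug or diet is named, and genotype is the only labelled difference. The KO allele was made in 129S5/Sv stem cells and then backcrossed, and it lacks 679 bases of C1qtnf1 exon 4, of which 162 lie in the 3' UTR. Each library has a number of its own, but nothing states that each came from a separate animal. The p-values therefore set group differences against the spread between libraries, which is not known to be the spread between animals. C1qtnf1 encodes CTRP1, a secreted relative of adiponectin.

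Omega-hydroxylation is a side route of fatty acid breakdown. The enzymes of family 4 sit in the endoplasmic reticulum and take electrons from P450 reductase. The omega-hydroxy acids they make are oxidised to dicarboxylic acids, which peroxisomes shorten. In the kidney the same chemistry turns arachidonic acid into 20-HETE, a lipid that constricts small arteries and slows salt uptake by the tubule. In the mouse, Cyp4a10 and Cyp4a14 are classical targets of PPAR-alpha, the nuclear receptor for fatty acids, whereas Cyp4a12a is raised by androgen and is regarded as the main 20-HETE synthase of the kidney.

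The genes fall into close sequence groups, which matters for reading their values, so a short coding stretch of 7 of them is shown first. Each line gives the 30 coding bases, 5′ to 3′, that encode the haem-binding motif of P450 enzymes, with the codon of the cysteine that holds the haem iron in capitals.
Cyp4a10: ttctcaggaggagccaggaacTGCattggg
Cyp4a31: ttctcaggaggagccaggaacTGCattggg
Cyp4a12a: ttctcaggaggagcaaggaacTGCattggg
Cyp4a14: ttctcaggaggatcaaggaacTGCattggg
Cyp4b1: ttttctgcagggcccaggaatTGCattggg
Cyp4f13: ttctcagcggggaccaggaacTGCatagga
Cyp4v3: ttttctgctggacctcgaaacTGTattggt
The sequences were read from GENCODE vM21 transcripts on build mm10, the build named for the deposited file. In Cyp4a10 the stretch covers coding bases 1345 to 1374 and crosses the junction of exons 11 and 12, with 17 bases in exon 11 (chromosome 4, plus strand, 115529502 to 115532543 with the intron between). It is identical in Cyp4a10, Cyp4a31 and Cyp4a32. From Cyp4a10 it differs at 1 base in Cyp4a12a and Cyp4a12b, at 2 bases in Cyp4a14, at 6 bases in Cyp4b1, Cyp4f13 and Cyp4f14, and at 10 bases in Cyp4v3.

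Over the whole coding sequence Cyp4a12a and Cyp4a12b were identical at 98.5% of aligned bases. Cyp4a10 was identical to Cyp4a32 at 97.2% and to Cyp4a31 at 96.6%, but to Cyp4a14 at only 76.1%. Of all stretches of 100 bases in the longest coding transcript, 35.8% of those of Cyp4a12a and 36.2% of those of Cyp4a12b were also found in another of the 10 genes. The share was 20.1% for Cyp4a32, 12.7% for Cyp4a10 and 8.22% for Cyp4a31, and it was 0 for the remaining 5. Reads from such stretches cannot be given to 1 gene, so the values of Cyp4a10, Cyp4a31, Cyp4a32, Cyp4a12a and Cyp4a12b are uncertain. The shares hold for stretches of 100 bases compared among the 10 genes only, and do not measure how large that uncertainty is.

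**Figure D1:**
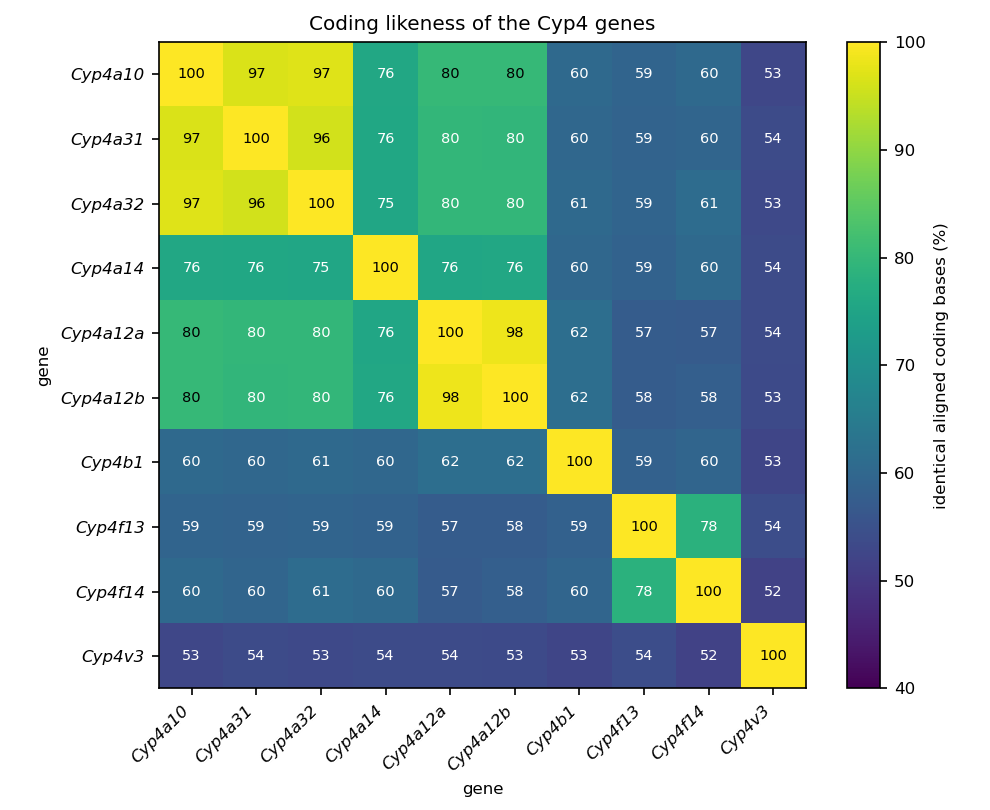
Share of identical bases (%, colour and number) in the pairwise alignment of the coding sequences of the 10 Cyp4 genes, each gene along both axes. Cyp4a10, Cyp4a31 and Cyp4a32 form a block and Cyp4a12a and Cyp4a12b a second one at 98.5%, while Cyp4a14 has 76.1% identity to Cyp4a10.

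7 of the genes lie side by side on mouse chromosome 4, within 348664 bases. In order of position (mm10) they are Cyp4a12a (115299046 to 115332815, plus strand), Cyp4a12b (115411624 to 115439034, plus), Cyp4a14 (115486200 to 115496142, minus), Cyp4a10 (115518264 to 115533649, plus), Cyp4a31 (115563649 to 115579015, plus), Cyp4a32 (115600969 to 115621602, plus) and Cyp4b1 (115624725 to 115647709, minus). Cyp4f14 (32905071 to 32917342, minus) and Cyp4f13 (32924688 to 32947402, minus) are neighbours on chromosome 17. Cyp4v3 (45269671 to 45333216, minus) is on chromosome 8. The file's span of Cyp4v3 overlaps Klkb1 on the same strand by 25189 bases, and Klkb1 measured at most 0.0818 scaled FPKM in any library. No other gene of the table overlaps any of the 10. None of the 10 lies on chromosome 11, which holds C1qtnf1.

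The libraries held 15027400 to 19256378 counted reads. Values are scaled FPKM, the authors' fragments per kilobase of gene and per fixed number of fragments, divided by 1 factor per library. C1qtnf1, the targeted gene, measured 0.326 ± 0.175 in KO and 3.63 ± 0.873 in WT (SD, n = 4 each), with a limma adjusted p of 0.000786, and reads outside the deleted bases can still be counted. Markers of the kidney were plain in both groups, with the phosphate transporter Slc34a1 of the proximal tubule at 2328 to 2539 in KO and 2623 to 2988 in WT. Xist was at most 0.0170 and the Y-linked Ddx3y at least 9.46 in every library. WT replicate 3 stood apart in Havcr1, a marker of tubule injury, which reached 4.75 there. WT replicate 2 was next at 1.88, while the remaining libraries held 0.485 to 0.657. The injury markers did not all follow Havcr1. Of 7 tested, 6 were lower in KO and Krt18 was higher (log2 fold change 0.41), and Lcn2 reached 4.09 in KO against 3.42 in WT. Their mean centred log2 value was 0.94 in WT replicate 3, 0.26 in KO replicate 3 and 0.24 in WT replicate 2, and negative in the remaining libraries. Fold changes of the single Cyp4 genes, their pooled levels and the list medians are therefore given with and without WT replicate 3. Leaving it out keeps WT replicate 2 and KO replicate 3 in. Fold changes of other genes and of summed reads include WT replicate 3. Across genes, the rank correlation of a library's centred log2 value with GC content ran from -0.392 to -0.0689 in KO, against 0.462, 0.392, -0.240 and 0.286 in WT replicates 1 to 4. The part of GC content in the differences was not tested beyond a fit with GC and length trends removed, in which Cyp4a10 stood at -0.78, Cyp4a14 at -2.03 and Cyp4a12a at 0.68 (log2 fold changes).

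All 10 genes passed the filter on low values, a mean of at least 0.5 scaled FPKM over the 8 libraries. In the limma fit over 14025 genes, none of the 10 (0 genes) differed between KO and WT at an adjusted p under 0.05, where 0.0499% of all tested genes did (0.0285% higher and 0.0214% lower in KO). The smallest adjusted p among them was 0.175, for Cyp4a10. An unadjusted limma p under 0.05 was found for 4 of the 10, where 15.5% of all tested genes had one. Of these, 3 were lower in KO (Cyp4a10, Cyp4a14 and Cyp4a31), where 7.99% of all genes passed on that side, and 1 was higher (Cyp4a32), where 7.54% did. With limma's voom on the reads recovered from the FPKM, 0 were called, where 0.057% of genes were, and 5 had an unadjusted p under 0.05, where 16.0% of genes did. Without WT replicate 3, 0 were called, where 0.1% of genes were, and 3 had an unadjusted limma p under 0.05, where 21.8% of genes did. The median log2 fold change of KO over WT was -0.10 over the 10 genes and 0.0021 over all tested genes. The genes share sequence, so the 10 values are not independent of each other.

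**Figure D2:**
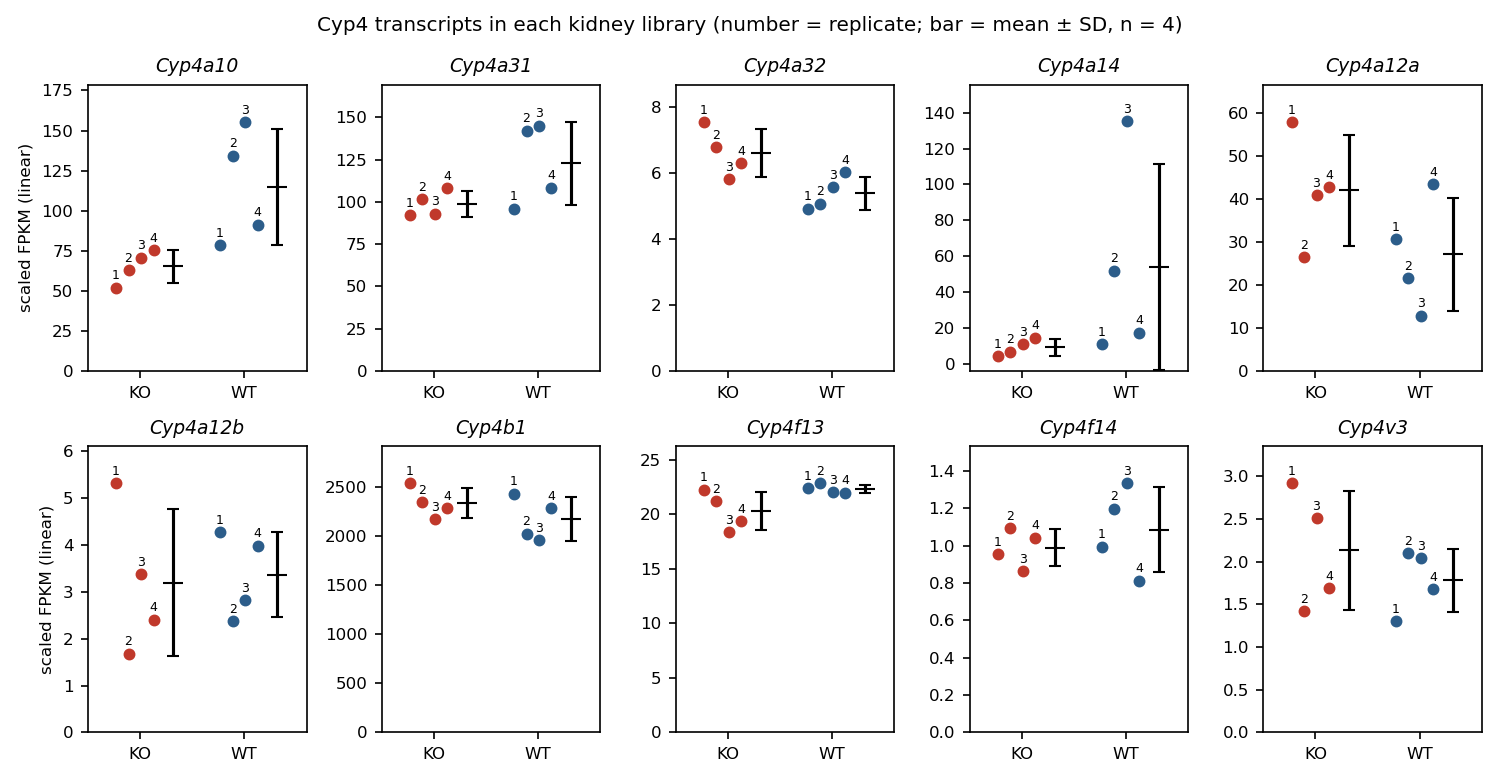
Scaled FPKM (vertical axes, linear, own scale per gene) of the 10 Cyp4 genes in each kidney library; points are libraries numbered by replicate, KO left of WT, and the bar is the mean ± SD (n = 4). Cyp4a10 lay between 51.9 and 75.4 in KO and between 78.5 and 155 in WT, and Cyp4a14 reached 135 in WT replicate 3 against at most 14.4 in KO.

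Per length, the order of the levels was led by Cyp4b1, with a mean of 2253 scaled FPKM over the 8 libraries. It made up 90.4 ± 0.903% of the summed level of the 10 genes in KO and 85.9 ± 4.67% in WT (SD, n = 4 each). Cyp4a31 (111) and Cyp4a10 (90.0) followed, and their ranges over the 8 libraries overlapped, as did those of Cyp4a10, Cyp4a12a (34.5), Cyp4a14 (31.5) and Cyp4f13 (21.3) from each to the next. Cyp4f13 stood above Cyp4a32 (6.01) in all 8 libraries with no overlap of ranges. Cyp4a12b (3.28), Cyp4v3 (1.96) and Cyp4f14 (1.04) came last, and each of Cyp4a32, Cyp4a12b and Cyp4v3 was above the next in every one of the 8 libraries although the ranges overlapped. Cyp4a14 was below Cyp4f13 in 4 of 4 KO libraries, and in 2 of 4 WT libraries, and above it in WT replicates 2 and 3.

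Cyp4a10 was the 1 gene of the 10 whose KO and WT libraries did not overlap, where 8.77% of all tested genes showed no overlap (4.22% lower and 4.55% higher in KO). It is a lauric acid omega-hydroxylase and a standard readout of PPAR-alpha activity in mice. It measured 51.9, 63.0, 70.7 and 75.4 scaled FPKM in KO replicates 1 to 4, against 78.5, 134, 155 and 91.3 in WT replicates 1 to 4. All KO libraries were thus low, but the highest of them and the lowest WT library were close, and WT replicates 2 and 3 stood well above the others. The means were 65.2 ± 10.2 in KO and 115 ± 36.0 in WT (SD, n = 4 each), from 1608 to 5230 reads per library. The log2 fold change was -0.77 (SE 0.21, 95% interval -1.23 to -0.31) and did not pass (limma adjusted p = 0.175). Without WT replicate 3 it was -0.61 (limma adjusted p = 0.120), and the KO and WT libraries still did not overlap. The exact two-sided permutation test over the 8 libraries gave an unadjusted p of 0.0286, the smallest that 4 against 4 libraries allow. Every gene whose groups do not overlap reaches that p, so it adds nothing to the lack of overlap. In whole kidney, fewer cells of a type and less RNA per cell cannot be told apart.

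Cyp4a14, a second PPAR-alpha target that also hydroxylates lauric acid, had the widest spread. Its values were 4.09, 6.66, 11.0 and 14.4 scaled FPKM in KO replicates 1 to 4, against 11.0, 51.8, 135 and 17.2 in WT replicates 1 to 4. WT replicates 2 and 3 were far above all other libraries, whereas WT replicate 1 lay within the KO range, so the groups overlapped. The means were 9.05 ± 4.58 in KO and 53.9 ± 57.3 in WT (SD, n = 4 each). Between the highest and the lowest library there was a ratio of 3.52 in KO and of 12.3 in WT. On the log2 scale the SD within groups was 1.252, larger than that of 99.8% of tested genes. KO over WT stood at -2.0 on the log2 scale (SE 0.70, 95% interval -3.56 to -0.44, limma adjusted p = 0.239). Leaving out WT replicate 3 gave -1.34 (limma adjusted p = 0.197) and a WT mean of 26.7 ± 21.996 (SD, n = 3).

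The level of Cyp4a14 relative to Cyp4a10 was not constant. It was 0.0788, 0.106, 0.156 and 0.191 in KO replicates 1 to 4, against 0.140, 0.386, 0.871 and 0.189 in WT replicates 1 to 4. The ratio was thus high in the WT libraries where both genes were high, and lowest in KO replicate 1, where both were lowest. Cyp4a14 varied more, with a log2 SD within groups of 1.252 against 0.365 for Cyp4a10. The ratio therefore largely restates the values of Cyp4a14.

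Cyp4a31 and Cyp4a32 are little studied copies next to Cyp4a10. Cyp4a31 measured 92.2, 102, 92.9 and 108 scaled FPKM in KO replicates 1 to 4, against 95.9, 142, 145 and 108 in WT replicates 1 to 4. As for Cyp4a10, WT replicates 2 and 3 were the highest, but here the groups overlapped, since WT replicates 1 and 4 stood near the KO libraries. The log2 fold change was -0.30 (SE 0.13, limma adjusted p = 0.311), and -0.21 without WT replicate 3. Cyp4a32 measured 7.56, 6.79, 5.83 and 6.30 in KO replicates 1 to 4, against 4.93, 5.07, 5.57 and 6.03 in WT replicates 1 to 4. It ran the other way, with KO replicate 1 the highest library and only KO replicate 3 below the highest WT library. Its log2 fold change was 0.27 (SE 0.09, 95% interval 0.066 to 0.47, limma adjusted p = 0.228) from 120 to 206 reads per library, and 0.28 without WT replicate 3.

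Cyp4a10 over Cyp4a32 stood at 6.86 to 12.1 in KO and 15.1 to 27.9 in WT, and Cyp4a10 over Cyp4a31 at 0.563 to 0.760 in KO and 0.819 to 1.07 in WT. In both ratios the KO libraries lay below the WT libraries without overlap, as they did for Cyp4a10 itself, so the ratios largely restate that gene's values. Cyp4a10 over Cyp4a12a overlapped, at 0.896 to 2.38 in KO and 2.11 to 12.1 in WT. How often ratios of other genes show no overlap was not computed. Cyp4a10, Cyp4a31 and Cyp4a32 share part of their sequence. With the reads of all 3 summed, the log2 fold change was -0.47 (limma adjusted p = 0.226).

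Cyp4a12a, the androgen-induced 20-HETE synthase, was higher on average in KO. It measured 57.9, 26.4, 40.8 and 42.7 scaled FPKM in KO replicates 1 to 4, against 30.7, 21.5, 12.8 and 43.3 in WT replicates 1 to 4. KO replicate 1 was the highest library and WT replicate 3 the lowest, while the others of the groups overlapped. The means were 42.0 ± 12.9 in KO and 27.1 ± 13.1 in WT (SD, n = 4 each). KO over WT was 0.70 on the log2 scale (SE 0.34, 95% interval -0.063 to 1.47) and did not pass (limma adjusted p = 0.355). It moved to 0.40 without WT replicate 3, the lowest WT library. Its near copy Cyp4a12b was measured at lower levels, 5.31, 1.68, 3.38 and 2.40 in KO replicates 1 to 4, against 4.27, 2.37, 2.83 and 3.98 in WT replicates 1 to 4. Its groups overlapped over most of their range, with a log2 fold change of -0.13 (SE 0.28, limma adjusted p = 0.854) that turned to 0.093 without KO replicate 2 and was -0.19 without WT replicate 3. With the reads of both genes summed, the log2 fold change was 0.62 (limma adjusted p = 0.383).

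Within the Cyp4a subfamily the make-up of the pool differed between libraries. The summed level of Cyp4a10, Cyp4a14, Cyp4a31 and Cyp4a32 was 156, 178, 180 and 204 scaled FPKM in KO replicates 1 to 4, against 190, 333, 441 and 223 in WT replicates 1 to 4. Its mean was 180 ± 19.8 in KO and 297 ± 114 in WT (SD, n = 4 each), or 249 ± 74.9 in WT without replicate 3. Cyp4a12a and Cyp4a12b together took 28.9%, 13.6%, 19.7% and 18.1% of the Cyp4a level in KO replicates 1 to 4, against 15.5%, 6.69%, 3.43% and 17.5% in WT replicates 1 to 4. The 2 WT libraries with the largest pool of the first 4 genes were the 2 in which Cyp4a12a and Cyp4a12b took the smallest share. That pool is part of the total, so a larger pool lowers the share by arithmetic. In scaled FPKM, Cyp4a12a and Cyp4a12b together measured 35.0, 23.9, 15.7 and 47.3 in WT replicates 1 to 4.

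**Figure D3:**
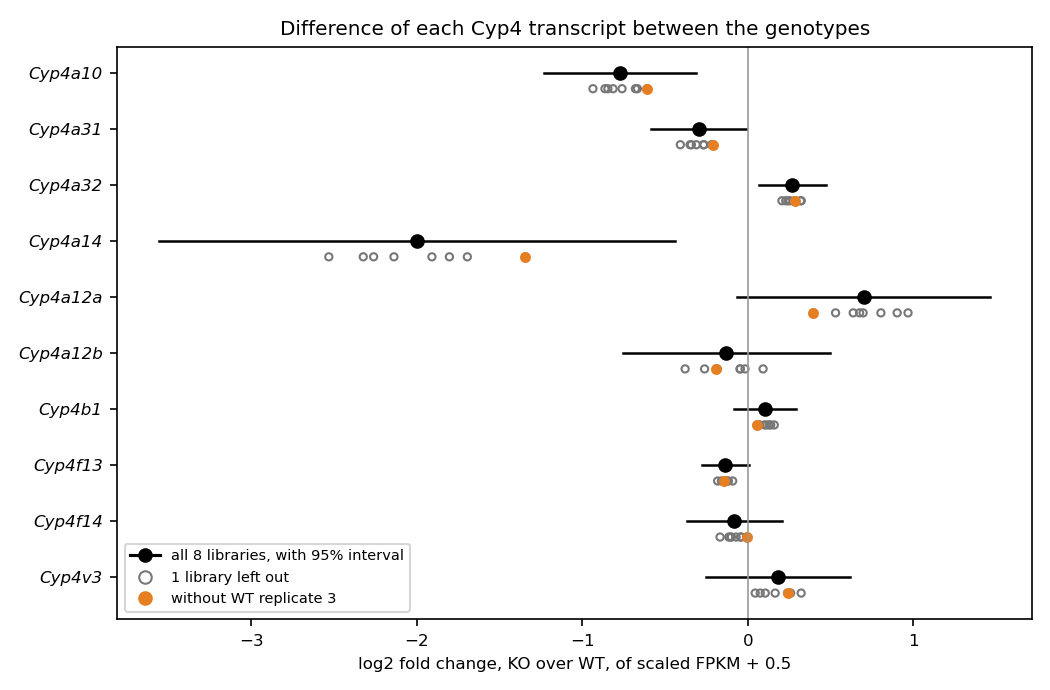
KO over WT as log2 fold change of each Cyp4 gene (horizontal axis; genes down the page), with the limma 95% interval as a line, open circles for fits with 1 library left out, and an orange point for the fit without WT replicate 3. Cyp4a14 has the widest interval, -3.56 to -0.44, and without WT replicate 3 it moves to -1.34 and Cyp4a12a to 0.40.

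Cyp4b1, the most abundant of the 10, hydroxylates short and medium chain fatty acids and activates some plant toxins. It measured 2535, 2341, 2169 and 2283 scaled FPKM in KO replicates 1 to 4, against 2428, 2024, 1955 and 2284 in WT replicates 1 to 4. The groups overlapped widely, and the 2 lowest libraries were again WT replicates 2 and 3. The log2 fold change was 0.11 (SE 0.08, 95% interval -0.084 to 0.29, limma adjusted p = 0.570), which was 0.056 without WT replicate 3 and 0.20 with quantile normalization. Because Cyp4b1 dominates the sum, the summed level of all 10 genes was 2580 ± 150 in KO and 2526 ± 126 in WT (SD, n = 4 each), or 2555 ± 137 in WT without replicate 3. Without Cyp4b1 the sum was 248 ± 17.2 in KO and 353 ± 103 in WT, or 309 ± 67.8 in WT without replicate 3.

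The Cyp4f enzymes hydroxylate leukotriene B4 and long chain fatty acids. Cyp4f13 measured 22.3, 21.2, 18.3 and 19.4 scaled FPKM in KO replicates 1 to 4, against 22.4, 22.8, 22.03 and 21.99 in WT replicates 1 to 4. The WT libraries were very close to each other, and KO replicate 1 lay among them. The log2 fold change was -0.14 (SE 0.06, limma adjusted p = 0.335), -0.070 once trends with GC content and gene length were removed, and -0.14 without WT replicate 3. Cyp4f14, with 29 to 48 reads per library, ranged from 0.866 to 1.10 in KO and from 0.814 to 1.33 in WT. Its log2 fold change was -0.080 (SE 0.13, limma adjusted p = 0.791), -0.033 with those trends removed and -0.0065 without WT replicate 3, so no difference was detectable at this depth.

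Cyp4v3 is the mouse counterpart of human CYP4V2, the gene of Bietti crystalline dystrophy, a disease of the retina. It ranged from 1.42 to 2.92 scaled FPKM in KO and from 1.304 to 2.10 in WT, from 79 to 165 reads per library. KO replicates 1 and 3 were above all WT libraries and KO replicates 2 and 4 were within their range. KO over WT was 0.18 on the log2 scale (SE 0.19, limma adjusted p = 0.673), 0.24 without WT replicate 3, and between 0.045 and 0.32 when single libraries were left out.

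Cyp4a10, Cyp4a14 and Cyp4a31 were all highest in WT replicate 3, next highest in WT replicate 2 and lowest in KO replicate 1. Cyp4a12a was lowest in WT replicate 3, next lowest in WT replicate 2 and highest in KO replicate 1. Centred on the mean of the 8 libraries, Cyp4a14 was at 2.97 and Cyp4a12a at -1.27 (log2) in WT replicate 3, against -1.92 and 0.86 in KO replicate 1.

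Other gene lists also varied across these libraries. The mean centred log2 value of 21 PPAR-alpha target genes outside family 4 was -0.053, -0.15, -0.20 and -0.062 in KO replicates 1 to 4, against -0.024, 0.24, 0.25 and -0.0032 in WT replicates 1 to 4. It was thus highest in WT replicates 2 and 3. For 14 androgen-responsive kidney genes it ran from 0.073 to 0.33 in KO and from -0.45 to -0.00049 in WT, lowest in WT replicate 3. Straight-part proximal tubule markers (10 of 10 tested, 4 of them also in the androgen list) ran from 0.11 to 0.72 in KO and from -1.06 to 0.095 in WT, with WT replicate 3 at the bottom. Their summed level was 2255 to 2722 scaled FPKM in KO and 1750 to 2196 in WT. The largest part of it was Slc27a2, which overlapped between the groups, at 1022 to 1224 in KO and 1029 to 1111 in WT. Markers of the convoluted part (12 of 12 tested) summed to 5006 to 5506 in KO and 5855 to 6263 in WT, with Slc34a1 as the largest part, at 2328 to 2539 and 2623 to 2988. Tubule injury markers (all 8 listed genes, 7 of them tested) summed to 359 to 481 in KO and 339 to 732 in WT, highest in WT replicate 3. Most of that sum was Spp1, at 249 to 347 in KO and 238 to 557 in WT. Hepatocyte markers (all 8 listed genes, 4 of them tested) summed to 16.7 to 18.2 in KO and 16.6 to 24.5 in WT, mainly from Alb, Apoa2 and Fga. Ahsg, Serpina1c, Cps1 and Cyp2c29 were at most 0.248 in any library, though none of them was at 0 in all. The part of these lists in the values of the Cyp4 genes was not tested.

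**Figure D4:**
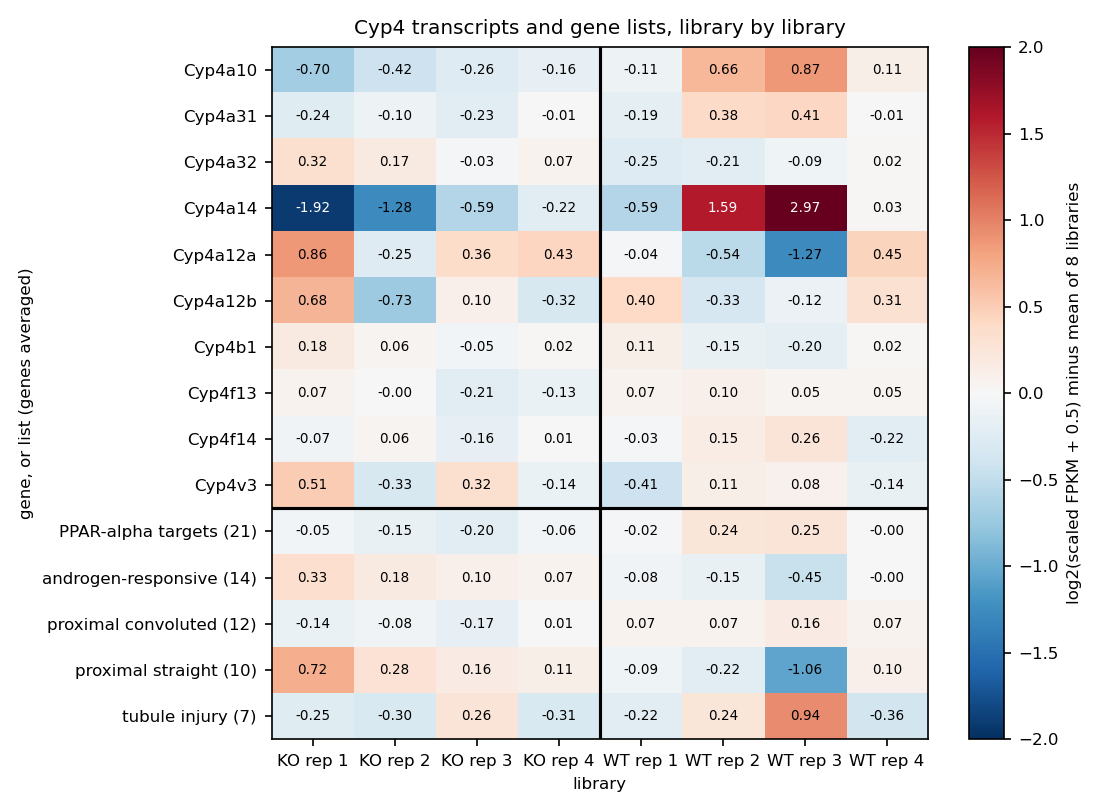
Log2(scaled FPKM + 0.5) minus the mean of the 8 libraries (colour and number; colours stop at 2 and -2) for each Cyp4 gene and, below the line, averaged over the tested genes of 5 lists, with KO libraries left of WT libraries. In WT replicate 3, Cyp4a14 stands at 2.97, Cyp4a12a at -1.27 and the straight-part proximal tubule markers at -1.06.

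The genes around the enzymes were compared in the same fit. Among 6 tested electron donors, 0 had even an unadjusted p under 0.05 and the median log2 fold change was 0.017, or 0.025 without WT replicate 3. The P450 reductase Por, which passes electrons to all microsomal P450 enzymes, measured 171 ± 4.87 scaled FPKM in KO and 176 ± 19.9 in WT, and cytochrome b5 (Cyb5a), which assists it, 529 ± 25.8 and 503 ± 18.5 in the same order (SD, n = 4 each). Those with the smallest p were Cyb5a (0.072), Cyb5b (0.062) and Cyb5r1 (0.094), all log2 fold changes with limma adjusted p of at least 0.537. Of 4 tested further Cyp4 genes, Cyp4f15 (0.17), Cyp4f16 (-0.066) and Cyp4f18 (-0.097) had the smallest p, none under a limma adjusted 0.684, and the list median was -0.059, or 0.012 without WT replicate 3.

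Downstream enzymes differed in both directions, and none passed the adjusted threshold (0 genes). A list of alcohol and aldehyde dehydrogenases was drawn up for the step from omega-hydroxy to dicarboxylic acids. Which of them carry that step in these kidneys was not tested. The median of the 8 tested was 0.091, or 0.069 without WT replicate 3. At an unadjusted limma p under 0.05, 2 of them were higher and 1 lower. For all lists these counts stand beside 7.54% of all tested genes higher and 7.99% lower at that p. Aldh2, the mitochondrial aldehyde dehydrogenase, measured 272 ± 12.4 scaled FPKM in KO and 316 ± 15.5 in WT (log2 fold change -0.22, limma adjusted p = 0.159). Adh1 stood at 0.31 and Adh7 at 0.43. Of 14 tested genes of peroxisomal handling, 1 was higher and 5 were lower at an unadjusted p under 0.05, with a median of -0.069, or -0.043 without WT replicate 3. The thiolase gene Acaa1b measured 146 ± 16.9 in KO and 229 ± 36.2 in WT (-0.64, limma adjusted p = 0.112), and Acsl1, which activates fatty acids with coenzyme A, was at -0.42. Crot, which exports shortened acids from peroxisomes as carnitine esters, went the other way, at 112 ± 15.7 in KO and 81.6 ± 11.6 in WT (0.46, limma adjusted p = 0.172).

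The regulators differed little. Ppara measured 23.8 ± 3.18 scaled FPKM in KO and 24.1 ± 2.44 in WT (SD, n = 4 each), and its log2 fold change was -0.020 (limma adjusted p = 0.942). Among 12 tested genes of PPAR-alpha and its partners the median was -0.020 (-0.046 without WT replicate 3) and 0 had an unadjusted p under 0.05, the smallest belonging to the partner receptor Rxrb (-0.22), then Ppard (-0.17) and the corepressor Ncor1 (0.082). Of 21 tested PPAR-alpha targets outside family 4, 10 were lower and 1 was higher at an unadjusted p under 0.05, none passed (0 of 21), and the median was -0.16, or -0.14 without WT replicate 3, against 0.0021 for all tested genes. Acaa2, a mitochondrial thiolase, was at -0.48, and Cd36, a fatty acid transporter, was the target on the higher side, at 100 ± 13.9 in KO and 70.02 ± 9.37 in WT (0.52).

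Other enzymes and partners of arachidonic acid were split. Of 13 tested, 3 were higher and 3 lower at an unadjusted p under 0.05 and the median was 0.12, which was 0.11 without WT replicate 3 and 0.033 without KO replicate 3. Plaa, an activator of phospholipase A2, stood at 0.26, the epoxygenase Cyp2j13 at 0.55 and the secreted phospholipase Pla2g5 at -0.29, with limma adjusted p of 0.149, 0.165 and 0.184. Of 14 tested androgen-responsive genes, 9 were higher and 0 lower at an unadjusted p under 0.05, where 7.54% and 7.99% of all tested genes were, none passed (0 of 14), and the median was 0.41, or 0.29 without WT replicate 3. Odc1, the ornithine decarboxylase, measured 426 ± 88.1 in KO and 263 ± 59.8 in WT (0.70, limma adjusted p = 0.160), and Slc22a30, an organic anion transporter, was at 0.41.

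**Figure D5:**
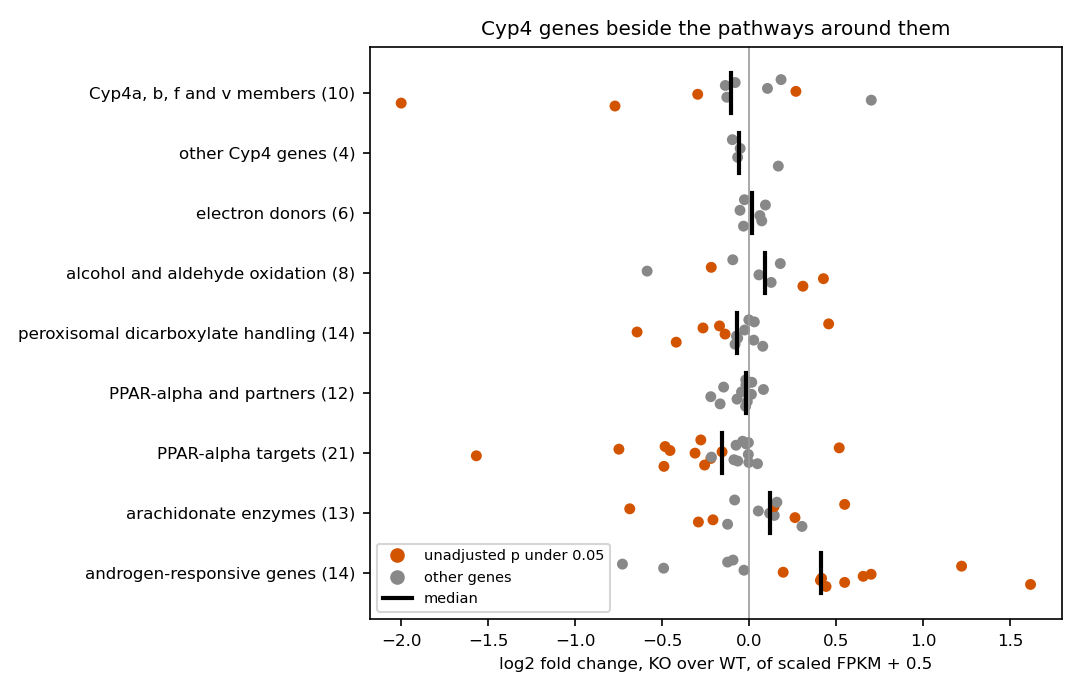
KO over WT as log2 fold change (horizontal axis) of the 10 Cyp4 genes and of each tested gene of 8 surrounding lists (numbers tested in brackets); orange points had an unadjusted limma p under 0.05, grey points did not, and the bar is the median. The medians run from -0.16 for the PPAR-alpha targets to 0.41 for the androgen-responsive genes, and no gene shown passed the adjusted threshold.

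Genes with the most similar values across the 8 libraries were looked for among the 14015 other tested genes, by the root mean square difference of centred log2 values. Nearest to Cyp4a10, whose own root mean square spread was 0.498, were Folr2 (0.157), Hpd (0.171) and Dpys (0.173). Dpys measured 8.90 ± 0.845 scaled FPKM in KO and 16.2 ± 3.82 in WT (log2 fold change -0.80, limma adjusted p = 0.112). It was picked for values like those of Cyp4a10, so a lower level in KO follows from the choice and adds nothing. How near the nearest of so many genes would lie without any link was not tested. Nearest to Cyp4a32, with a spread of 0.179, were Diap2 (0.0438), Casc4 (0.0529) and Hmgcs1 (0.0546), and nearest to Cyp4b1, with a spread of 0.119, were among others Frrs1 (0.0331) and Mlx (0.0340).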

How the data were processed

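The authors deposited FPKM per gene and library, per the file headers, with gene symbols, mm10 positions and gene length. The submitters' processing notes list STAR 2.5, HTSeq 0.6.1, CASAVA and DESeq2, with no roles. Annotation release and strand setting are not given in the sources used here. Deposited FPKM times gene length gave whole multiples of 1 step per library for 100% of values (tolerance 0.01), so whole reads were recovered; no column of per-sample values lacked a sample. Each library was divided by a median-ratio factor (0.978 to 1.03). Log2(scaled FPKM + 0.5) of genes with a mean of at least 0.5 went into limma 3.58.1 (R 4.3.3; eBayes with trend), genotype as the only term, two-sided, with Benjamini-Hochberg adjustment over all tested genes and a threshold of 0.05. Fold changes on this scale understate those of low genes. Intervals are 95%, from the fit. The fit was tested on simulated data.

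Genes named are the 10 Cyp4 genes, the 3 nearest in pattern to the pair of smallest p and to the most abundant one, and from each list up to 3 of smallest p; Por, Slc34a1 and Klkb1 were chosen after their values were seen. Some genes that this rule names are not reported here. The Cyp4 genes and the lists were chosen with earlier results of these data known. A list of genes higher in female kidneys was not used, because the sex bias of some of its members was doubtful. Replicate numbers follow the order of the samples and pair nothing. Coding sequences were aligned with Biopython 1.88.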

Additional observations from a re-analysis of the deposited data

How the results depend on the processing

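Under the 21 alternatives that count calls (pseudocount, filter, scaling, limma settings, voom on the recovered reads, GC and length trends, a threshold of 0.1 and each library left out), 0 of the 10 Cyp4 genes were called. Over all genes, 5 to 14 were called when single libraries were left out, with 11 without KO replicate 1 and 14 without WT replicate 3. Of 220 alternative results for the Cyp4 genes, 216 kept their direction and their side of the threshold. Part of that count was fixed in advance. The filter and eBayes settings and the permutation test cannot move a fold change, only its p. Summing near-identical genes does not move the fold changes of the genes left single. Cyp4a12b ran from -0.38 without KO replicate 1 to 0.093 without KO replicate 2. Summing the reads of near-identical genes gave -0.47 for the sum that holds Cyp4a32 and 0.62 for the sum that holds Cyp4a12b, against 0.27 and -0.13 for the single genes, because each sum is dominated by its more abundant members. The exact permutation test of Cyp4a10 gave an unadjusted p of 0.0286, which is not comparable with the adjusted threshold. Among the list medians, that of the arachidonate enzymes was 0.033 without KO replicate 3, against 0.12, and that of the electron donors was 0.059 with quantile normalization, against 0.017. No paired analysis was possible because the labels give KO and WT libraries no shared replicate number. Depth limits Cyp4f14 (29 to 48 reads per library) most.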
